A study of Mus musculus with 38 samples.

Results

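The response of aged, NAM/PN-treated gastrocnemius muscle to cardiotoxin (CTX) at 5 days post injury (dpi) was measured by comparing the injected leg with the opposite, contralateral leg. Members were chosen by their labels alone, as the libraries of aged treated mice from either leg, which gave 10 of the 38 libraries of the series, 4 injured and 6 contralateral. The animals were old wild-type C57BL/6JRj males that received nicotinamide (NAM, the amide form of vitamin B3) at 200 mg/kg/day together with pyridoxine (PN, a form of vitamin B6) at 4 mg/kg/day by oral gavage in carboxymethyl cellulose. CTX, a snake venom toxin that lyses myofibers and leaves muscle stem cells in place, was injected into the muscles of 1 hind limb. Both groups therefore carried the same NAM/PN exposure, and the uninjured comparison was a leg of an injured animal, not a sham-operated or untouched mouse. The 10 libraries came from 6 mice, of which 4 gave both legs and 2 gave the contralateral leg alone, so that n counts animals within each group. The remaining 28 libraries, from aged vehicle-, young vehicle- and young NAM/PN-treated mice, entered the model to estimate the spread and were used to place the aged NAM/PN response beside the others.

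After CTX, necrotic myofibers are cleared by infiltrating neutrophils and then macrophages, while quiescent PAX7+ muscle stem cells (MuSCs) activate, divide, commit to MYOD+ and MYOGENIN+ progenitors and fuse into new fibers. These fibers first carry embryonic and neonatal contractile isoforms and fetal acetylcholine receptor subunits, and replace them with adult isoforms as they mature and are innervated. Fibroblastic cells meanwhile deposit a transitional extracellular matrix.

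Levels are given as TMM-normalised CPM (3′ end counts scaled to the effective library size), injured values in the order of replicates 1 to 4, and log2 fold changes as injured over contralateral ± SE. Of 12610 genes tested by edgeR's quasi-likelihood test, 3684 (29.2%) were higher and 3290 (26.1%) were lower in injured muscle at an adjusted p below 0.05, and 5636 did not pass. This fit used the groups alone and not the pairing of legs within mice, and a fit with the mouse as a block was run as an alternative. Changes were large as well as many, as 2774 genes rose and 1912 fell by at least 1 on the log2 scale, and 711 rose by at least 3 whereas 123 fell by as much. Injured and contralateral libraries did not overlap for 4664 genes, 37% of those tested. Within the 4 mice with both legs, 3256 of the genes called higher and 2703 of those called lower moved in the direction of the call in every mouse. The split depended on how libraries were scaled. TMM factors ran from 1.34 to 1.77 in injured and from 0.729 to 0.82 in contralateral libraries, and scaling by library totals alone raised the median log2 fold change by 1.045 and gave 8446 higher and 804 lower genes. All 3684 genes called higher by TMM were also called higher by library totals, but of the 3290 called lower, 804 were also lower and 468 were called higher. Falls below are thus falls relative to the TMM baseline. The shift by library totals favours rises in all genes, so the agreement on rises was largely fixed in advance and is no separate check.

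The libraries held 4132508 to 5929557 counts. Mitochondrially encoded transcripts took 9.51% ± 2.24 (SD, n = 4) of the counts in injured and 24.3% ± 5.87 (SD, n = 6) in contralateral muscle, a difference of -14.8 percentage points (two-sided exact permutation test, p = 0.00952, also after adjustment over both library measures and the smallest that 210 splits allow). The number of genes detected was 13536 ± 395 (SD, n = 6) in contralateral and 14963 ± 299 (SD, n = 4) in injured muscle, which differed by the same exact permutation test (p = 0.00952). Both tests took libraries as units and did not use the pairing of legs within mice. Adult muscle markers were abundant in all 10 libraries, as the fast fibre list summed to 59740 to 123800 CPM in injured and 261500 to 375000 CPM in contralateral muscle. In bulk muscle, fewer cells of a type and less RNA per cell cannot be told apart.

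The contralateral group was not uniform. In replicates 5 and 6, 1 of which came from a mouse without an injured library, macrophage and developmental contractile genes stood above the other 4 libraries. Macrophage markers in these 2 libraries reached 12.7% and 13.6% of the injured mean, against 3.64% to 8.23% in replicates 1 to 4, and the developmental contractile list reached 18.1% and 15.7%, against 6.26% to 10.6%. This did not extend to every list that rose, as matrix genes were at 17.1% and 18.9% in these libraries and at 20.04% in replicate 1. Leaving both libraries out, an alternative added after the data were seen, gave 3370 higher and 3178 lower genes. What these 2 libraries shared was not tested.

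Transcripts of the myogenic compartment increased. Of 16 tested genes of the stem and progenitor list, 12 were higher and none lower in injured muscle (median log2 fold change 1.65, beside 0.03 over all genes tested). The summed level of this list was 349.5 to 473.8 CPM in injured and 130.9 to 161.2 CPM in contralateral libraries. Pax7, the transcription factor that marks MuSCs, was at 33.1, 20, 25.3 and 14.2 CPM in the injured libraries and at 1.54 to 4.96 CPM (median 2.159) in the contralateral libraries. All 4 injured values thus lay above every contralateral value, with a log2 fold change of 3.19 ± 0.35 (adjusted p = 3.16e-09), a 9.18-fold ratio of the means. Myf5, a marker of activated stem cells and early myoblasts, rose by 2.94 ± 0.64 (adjusted p = 0.000164) although its groups overlapped. Cxcr4, the receptor for the chemokine CXCL12 on migrating progenitors and leukocytes, rose by 3.33 ± 0.49. Myod1, which commits progenitors to the myogenic fate, changed less and with overlapping groups. Its levels were 32.0, 29.8, 31.5 and 7.49 CPM after injury and 0.924 to 15.1 CPM (median 7.95) in the contralateral leg (log2 fold change 1.57 ± 0.52, adjusted p = 0.0104).

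Single regulators of terminal differentiation and fusion rose to a similar or larger extent, whereas their list did not move one way. Myog, which encodes myogenin, was at 145, 131, 110 and 30.6 CPM after injury and at 2.18 to 11.0 CPM (median 6.27) in contralateral muscle. The fourth injured library was the lowest for Pax7, Myod1 and Myog alike, but for Myog it still exceeded the contralateral range (log2 fold change 3.98 ± 0.54, adjusted p = 1.59e-07). Mymk, which encodes the fusion protein myomaker, was at 291, 266, 288 and 341 CPM after injury and at 0 to 19.4 CPM (median 3.98) in the opposite leg (log2 fold change 5.30 ± 0.84, adjusted p = 2.05e-06), with its highest injured value in the fourth library. Its partner Mymx, which encodes myomixer, was at 22.7, 16.0, 18.2 and 15.0 CPM against 0 to 2.47 CPM (log2 fold change 4.24 ± 0.62). The list of differentiation and fusion genes as a whole was mixed, with 7 higher, 6 lower and 7 uncalled among 20 tested. By library totals 13 were higher and 2 lower, so that the count of falls rests on the scaling. The members that fell included Ckm, the creatine kinase of mature fibers, by 2.63 ± 0.28, and the transcription factor genes Mef2c and Mef2d by 1.19 ± 0.28 and by 0.74 ± 0.15, and Myf6, a myogenic factor of mature fibers, did not pass (-0.46 ± 0.51, adjusted p = 0.464). These 3 genes of transcription factors were named after their values were seen. Cdkn1a, the cell cycle inhibitor p21 that is switched on when myoblasts exit the cycle, rose 7.25-fold in the means (log2 fold change 2.85 ± 0.39, adjusted p = 1.76e-07). Hes6, a cofactor of myogenic differentiation, was among the 8 genes with the smallest p of those that rose (2.56 ± 0.20).

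**Figure D1:**
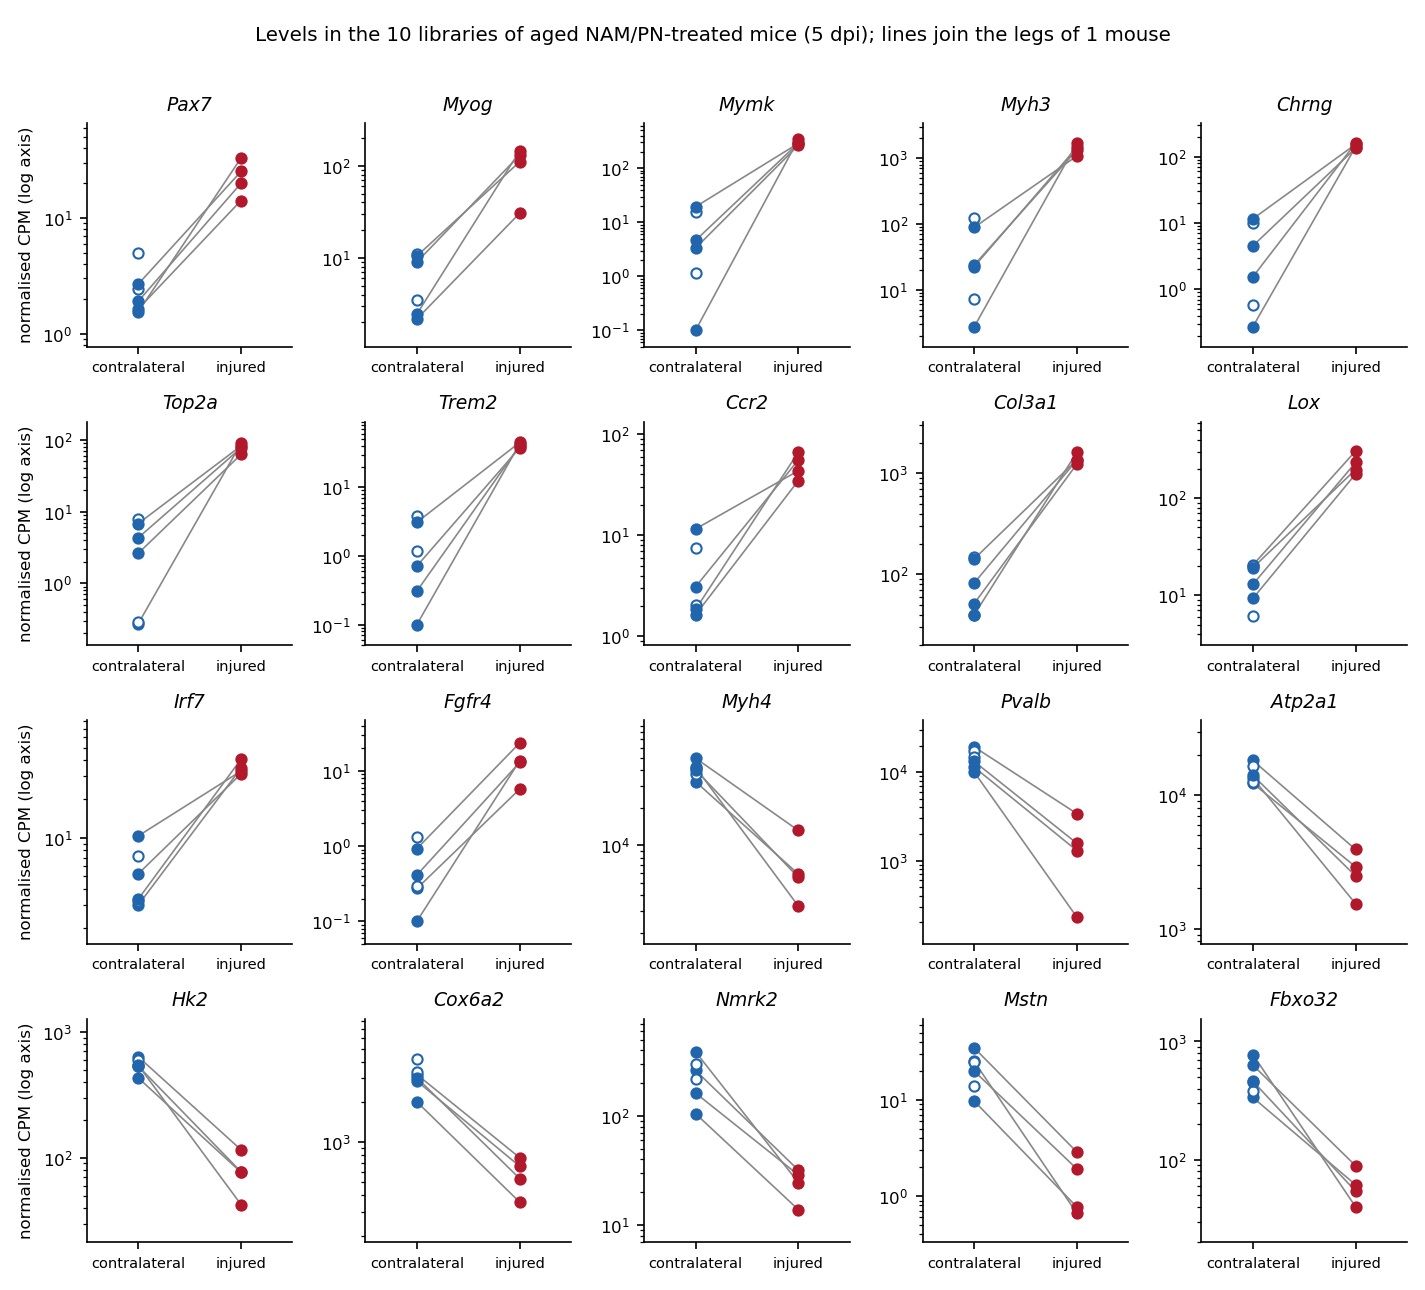
Level of single genes in each library (CPM, log axis, values of 0 drawn at 0.1), contralateral muscle in blue and injured muscle in red, with a line joining the legs of 1 mouse and open circles for the 2 mice with a contralateral leg alone. Pax7 sits between 14.2 and 33.1 CPM after injury, above all contralateral values of at most 4.96 CPM, and Myh4 sits below its contralateral range in all 4 injured libraries.

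Transcripts of developmental contractile isoforms increased. Of 9 developmental contractile genes tested, 7 were higher and none lower (median log2 fold change 3.09), and the list summed to 6810 to 8552 CPM after injury against 462.5 to 1333 CPM in the contralateral leg. Myh3, the embryonic myosin heavy chain, was at 1468, 1338, 1082 and 1702 CPM after injury. In contralateral muscle it was at 2.73, 7.29, 23.8 and 22.5 CPM in replicates 1 to 4 and at 123 and 88.9 CPM in replicates 5 and 6 (log2 fold change 4.96 ± 0.94, adjusted p = 3.13e-05). Myh8, the perinatal myosin heavy chain, also rose, at 2060, 1424, 1604 and 1500 CPM after injury and at 4.37 to 196 CPM in contralateral muscle (4.64 ± 0.95, adjusted p = 9.06e-05). For both genes the ratio of the highest to the lowest library was larger among the uninjured legs than among the injured ones, and the groups did not overlap.

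The adult fast contractile program moved the other way. Of 24 fast fibre genes tested, 22 were lower and none higher (median log2 fold change -2.20), and none of the 22 overlapped between groups. Over all genes tested, 26.1% were lower and 37% did not overlap. By library totals 16 of the 24 fast fibre genes were lower and none higher. Myh4, the heavy chain of type IIB fibers that make up most of this muscle, was at 3285, 5912, 5570 and 13160 CPM after injury and at 32250 to 49640 CPM (median 40760) in the contralateral leg, a 5.78-fold lower mean (log2 fold change -2.53 ± 0.33, adjusted p = 7.74e-08). The fourth injured library retained the highest level and the first the lowest. Pvalb, the calcium buffer of fast fibers, fell by 3.15 ± 0.46, and the kinase genes Mylk4 and Mylk2 fell by 4.16 ± 0.47 and by 3.22 ± 0.37. Myh2, the type IIA heavy chain, was called at -2.71 ± 1.16 (adjusted p = 0.0466), a call lost with the mouse as a block (adjusted p = 0.0674) and in 8 of 10 fits that each left out 1 library. Myh1, the type IIX heavy chain, did not pass (log2 fold change -0.88 ± 0.55, adjusted p = 0.173), was called lower in the fit to the groups compared alone (adjusted p = 0.0384) and turned by library totals (0.15). Slow fibre genes were too uneven in the uninjured leg for a common direction, with 2 higher and 3 lower among 11 tested. Myh7, the slow heavy chain, ran from 0.545 to 1078 CPM across the contralateral libraries and from 4.38 to 39.2 CPM across the injured ones, and its call at -4.09 ± 1.59 (adjusted p = 0.0286) was lost without contralateral replicate 4 (adjusted p = 0.0814), without injured replicate 1, 3 or 4 (0.0741, 0.0778 and 0.0581) and with the mouse as a block (0.236). The other genes that fell were the slow light chain genes Myl3 (-4.72 ± 1.5) and Myl2 (-4.56 ± 1.51). Casq2, the calsequestrin of slow and cardiac fibers, was instead higher (2.84 ± 0.57, adjusted p = 6.47e-05), as was Tnni1, the slow troponin I (2.31 ± 0.82). Myl2 and Tnni1 lie outside the naming rule and were added after their values were seen, to complete a short count.

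Calcium handling and excitability genes fell with the fast fibre genes. Of 18 excitation-contraction coupling genes tested, 17 were lower and 1 was higher (median log2 fold change -1.67). By library totals 12 were lower and 3 higher, with a median of -0.65. Atp2a1, the fast calcium pump of the sarcoplasmic reticulum, was at 1534, 2907, 2479 and 3921 CPM after injury against 12320 to 18290 CPM (-2.43 ± 0.26, adjusted p = 2.15e-09), and Clcn1, the muscle chloride channel, fell by 2.72 ± 0.42. The gene that rose was Sln, which encodes the calcium pump inhibitor sarcolipin, at 45.7 to 161 CPM after injury against 0.273 to 70.7 CPM (2.41 ± 0.56, adjusted p = 0.000427, groups overlapping).

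Transcripts of the fetal and adult acetylcholine receptor subunits moved in opposite directions. The muscle acetylcholine receptor carries a gamma subunit before innervation and an epsilon subunit afterwards. Chrng, which encodes the fetal gamma subunit, was at 160, 135, 154 and 141 CPM after injury and at 0.273 to 11.6 CPM (median 3.03) in contralateral muscle, a 31.2-fold ratio of the means (log2 fold change 4.90 ± 0.80, adjusted p = 3.84e-06). Chrne, which encodes the adult epsilon subunit, was at 2.24, 3.69, 4.65 and 4.30 CPM after injury and at 5.71 to 12.2 CPM (median 10.5) in contralateral muscle (-1.34 ± 0.39, adjusted p = 0.00369). Neither gene overlapped between the groups, although by library totals the fall of Chrne no longer passed (-0.32, adjusted p = 0.442). Chrna1, the alpha subunit common to both receptor forms, rose 13.8-fold from 4.09 to 49.5 CPM to between 179 and 462 CPM (3.78 ± 0.52, adjusted p = 1.83e-07). Runx1, a factor known to rise in denervated and regenerating muscle, increased by 2.69 ± 0.43. Over the neuromuscular junction list, 7 of 13 tested genes were higher and 2 lower. The second of the 2 was Musk, the receptor kinase that clusters acetylcholine receptors (-1.09 ± 0.46, named after its value was seen). By library totals 10 genes of the list were higher and none lower, so that the call of Musk was lost too.

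The promoters of these receptor genes are shown because the E-box CAGCTG, a motif bound by MYOD and myogenin among other factors, recurs in them. Sequences are from RefSeq on GRCm38.p6 and run from 250 bases before to 50 bases after the annotated start, written 5′ to 3′ on the gene's strand with CAGCTG in capitals (the motif reads the same on both strands). Chrng lies on the plus strand, with the window at chr1:87205561-87205860, and Chrna1 on the minus strand, with the window at chr2:73580289-73580588.
Chrng: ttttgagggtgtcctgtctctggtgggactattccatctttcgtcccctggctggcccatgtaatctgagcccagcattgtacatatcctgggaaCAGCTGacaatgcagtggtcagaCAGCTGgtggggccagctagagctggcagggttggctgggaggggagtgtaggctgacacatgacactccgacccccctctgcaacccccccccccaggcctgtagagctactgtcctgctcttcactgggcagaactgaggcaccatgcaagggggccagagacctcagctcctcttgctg
Chrna1: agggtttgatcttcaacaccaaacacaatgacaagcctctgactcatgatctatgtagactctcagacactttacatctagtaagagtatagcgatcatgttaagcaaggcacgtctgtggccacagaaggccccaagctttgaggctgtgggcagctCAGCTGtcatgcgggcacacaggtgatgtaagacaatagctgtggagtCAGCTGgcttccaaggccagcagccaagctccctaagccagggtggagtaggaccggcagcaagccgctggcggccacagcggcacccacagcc
Chrng held the motif 155 and 132 bases before its start and Chrna1 held it 92 and 44 bases before. Across the promoter table, 18.29% of 27025 genes held CAGCTG in this window, as did 18.66% of the 9876 tested genes found there. Among genes with a window, it was found in 4 of 8 neuromuscular junction genes and 8 of 16 differentiation and fusion genes, but also in 9 of 18 glycolysis and glycogen genes and 6 of 16 fast fibre genes, lists in which most members fell. The letters were thus present in lists with unlike directions.

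Metabolic genes of the adult fiber fell broadly. Of 21 glycolysis and glycogen genes tested, 19 were lower and none higher (median log2 fold change -1.97), and 17 were lower by library totals. Hk2, the hexokinase that traps glucose in muscle, was at 42.5, 76.6, 77.3 and 116 CPM after injury and at 432 to 634 CPM (median 541) in the contralateral leg, a 7.002-fold lower mean (-2.81 ± 0.27, adjusted p = 5.10e-10). Slc2a4, which encodes the insulin-responsive glucose transporter GLUT4, fell by 2.79 ± 0.29. Fatty acid oxidation and TCA cycle genes were lower in 20 of 28 cases and higher in none (8 lower and 2 higher by library totals), Ppara, a nuclear receptor that drives fatty acid oxidation, falling by 2.86 ± 0.74 and Idh3b, a TCA cycle enzyme subunit, by 2.05 ± 0.30. Ppargc1a, the coactivator of mitochondrial biogenesis, fell by 1.49 ± 0.35 (adjusted p = 0.000474), a call lost by library totals (adjusted p = 0.219).

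Nuclear genes of oxidative phosphorylation were lower in 70 of 79 cases and higher in 2, with a smaller median of -1.17. By library totals 17 were lower and 5 higher and the median was -0.12, so that the breadth of this fall rests on the scaling. The 2 genes that rose, Cox6a1 and Cox8a (the latter named after its values were seen), encode the forms of their cytochrome c oxidase subunits that are found in most tissues, and their muscle forms fell. Cox6a1 was at 239, 225, 210 and 213 CPM after injury and at 44.0 to 77.3 CPM in contralateral muscle (1.80 ± 0.19, adjusted p = 1.60e-09), while Cox6a2, the heart and muscle form, was at 357, 766, 535 and 661 CPM against 2001 to 4165 CPM (-2.42 ± 0.27, adjusted p = 4.82e-09). In the same way Cox8a was at 35.5 to 87.1 CPM against 3.70 to 41.0 CPM (1.42 ± 0.38, adjusted p = 0.00199, groups overlapping), and Cox8b, also named after its values were seen, was at 71.5 to 102 CPM against 313 to 509 CPM (-2.37 ± 0.24). Cox7a1, a further muscle form, fell by 2.41 ± 0.30. Of 9 mitochondrially encoded genes tested, 8 were lower (6 by library totals), among them mt-Nd2 (-2.76 ± 0.33) and mt-Co1 (-2.69 ± 0.29).

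**Figure D2:**
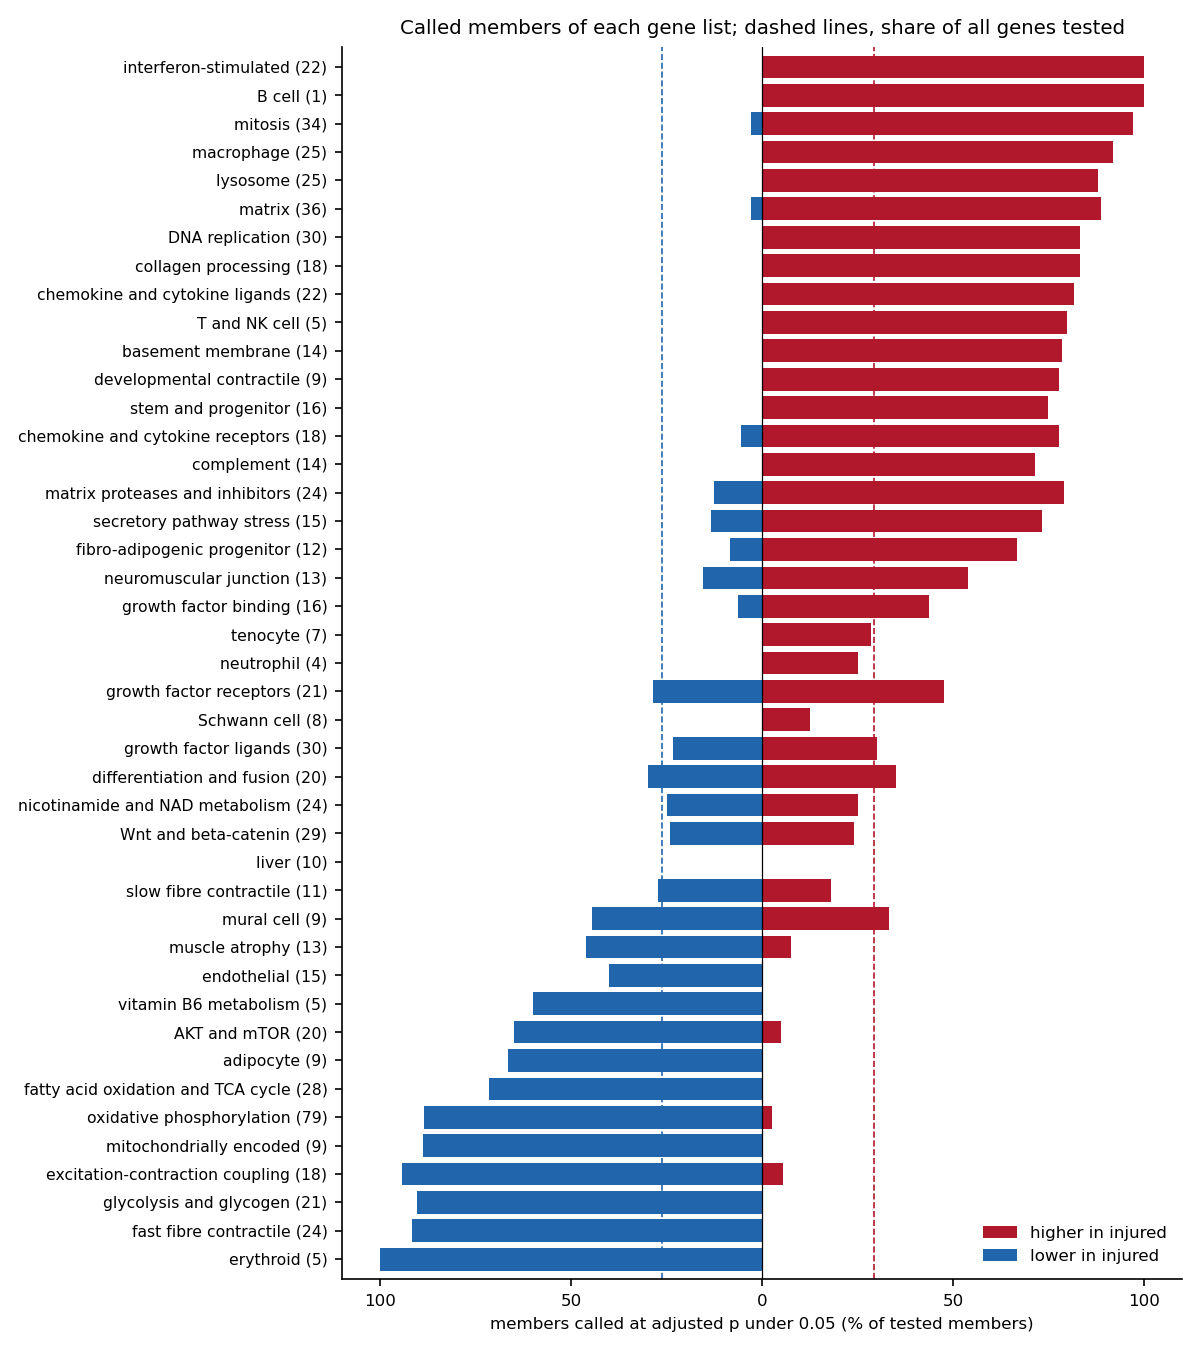
Share (%) of the tested members of each gene list that were higher (red, to the right) or lower (blue, to the left) in injured muscle at an adjusted p below 0.05, with the number tested in parentheses and dashed lines at the shares over all genes tested (29.2% and 26.1%). Macrophage (23 of 25), mitosis (33 of 34) and interferon-stimulated genes (22 of 22) were called almost entirely higher, and fast fibre (22 of 24) and glycolysis and glycogen genes (19 of 21) almost entirely lower.

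Inflammatory cells were represented mainly by macrophage genes. Of 25 macrophage markers tested, 23 were higher and none lower (median log2 fold change 3.63, or 4.33 without contralateral replicates 5 and 6), and the list summed to 3760 to 4481 CPM after injury against 148.9 to 556.8 CPM. Trem2, a lipid receptor of phagocytic macrophages, was at 40.4, 37.5, 45.0 and 43.03 CPM after injury and at 0 to 3.76 CPM (median 0.94) in contralateral muscle (log2 fold change 4.71 ± 0.67, adjusted p = 3.69e-07). Ms4a7 rose by 4.73 ± 0.50 and Gpnmb, a glycoprotein of lipid-laden macrophages, by 4.19 ± 0.59. Chemokine receptors that mark different stages of the monocyte to macrophage course were both higher. Ccr2, the receptor for CCL2 by which monocytes leave the blood, was at 66.3, 55.5, 43.5 and 34.7 CPM against 1.64 to 11.6 CPM (3.38 ± 0.52, adjusted p = 1.26e-06). Cx3cr1, the fractalkine receptor of patrolling and maturing macrophages, was at 91.8, 82.4, 88.4 and 130 CPM against 0.273 to 10.3 CPM (4.40 ± 0.58, adjusted p = 1.07e-07). The fourth injured library was lowest for Ccr2 and highest for Cx3cr1. Cd163, a scavenger receptor of resident macrophages named after its value was seen, did not pass (0.43 ± 0.38, adjusted p = 0.348).

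Other leukocytes left a smaller trace. Neutrophil markers summed to 3.83 to 6.37 CPM after injury and to 3.39 to 19.9 CPM in contralateral muscle. In this list 4 of 11 members passed the filter on low counts, 1 of them, the G-CSF receptor gene Csf3r, was higher (23 counts in injured and 2 in contralateral libraries in all, adjusted p = 0.00438), and S100a8, an abundant neutrophil alarmin subunit, did not pass (1.33 and 3.91 CPM in the means, adjusted p = 0.111, but 0.0262 in the fit to the groups compared alone). T and NK cell markers passed that filter in 5 of 14 cases and were higher in 4, Cd4, Lck, Nkg7 and Gzma, each with 45 to 104 counts over the injured and 1 to 3 over the contralateral libraries. The 1 B cell marker of 6 that was tested, Cd79b, had 26 and 6 counts with overlapping groups (1.74 ± 0.76, adjusted p = 0.0404), and its call was lost with the mouse as a block (adjusted p = 0.21). These lymphocyte genes and Csf3r were named after their values were seen. Csf3r, Cd79b and the 4 called T and NK cell genes held 1 to 6 contralateral counts each. They could pass the filter only through other libraries, which favours calls of a rise. The same holds for genes of other lists with few contralateral counts, such as the collagenase gene Mmp13 (8) and the FGF receptor gene Fgfr4 (12). Chemokine and cytokine ligands were higher in 18 of 22 cases and lower in none, Cxcl16 rising by 3.91 ± 0.45 and Ccl8, a monocyte attractant, by 3.83 ± 0.54. Receptors were higher in 14 of 18 cases. Lifr, the receptor subunit for LIF, was the 1 receptor that fell (-1.26 ± 0.29), a call lost by library totals (adjusted p = 0.394). Complement genes were higher in 10 of 14 cases, with C3ar1, the receptor for the complement fragment C3a, rising by 3.95 ± 0.50 and C1qc, a chain of the initiator C1q, by 3.69 ± 0.53. Lysosomal genes, which serve the degradation of engulfed debris, were higher in 22 of 25 cases, led by the protease gene Ctss (4.60 ± 0.67) and by Laptm5 (3.71 ± 0.45). Chemokine, complement and lysosomal genes moved with the macrophage markers, whose part in these results was not tested. The lists are not fully separate, as C1qc is also a macrophage marker.

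All 22 interferon-stimulated genes tested were higher (median log2 fold change 2.07), and 18 of them did not overlap between groups. Among the 18, Mx1 and Zbp1 held 8 and 15 contralateral counts and could pass the filter only through other libraries. Over all genes tested, 29.2% were higher and 37% did not overlap. Irf7, the transcription factor that amplifies type I interferon production, was at 31.2, 40.6, 32.8 and 34.6 CPM after injury and at 3.00 to 10.3 CPM (median 4.28) in contralateral muscle (2.67 ± 0.51, adjusted p = 3.93e-05). Rtp4 was close to uniform among the injured libraries, at 24.5, 24.3, 25.9 and 24.5 CPM after injury against 3.22 to 6.19 CPM (2.64 ± 0.39, adjusted p = 5.41e-07).

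A sequence motif of this list is shown in the promoters of Ifit1, which encodes a translation inhibitor, and Isg15, which encodes a ubiquitin-like modifier. These genes lie outside the rule for naming genes and were chosen for their promoters after their values were seen. Ifit1 was at 16.5, 19.1, 27.4 and 10.8 CPM after injury and at 2.156 to 15.1 CPM in contralateral muscle (1.59 ± 0.52, adjusted p = 0.0101, groups overlapping), and Isg15 was at 17.7, 20.2, 20.9 and 7.97 CPM against 0.616 to 6.44 CPM (2.08 ± 0.49, adjusted p = 0.000444). Capitals mark TTTC, any 2 bases and TTTC again, or the reverse complement, which is the core of the element bound by the interferon-activated factor ISGF3. The Ifit1 window lies at chr19:34640639-34640938 on the plus strand and the Isg15 window at chr4:156200769-156201068 on the minus strand.
Ifit1: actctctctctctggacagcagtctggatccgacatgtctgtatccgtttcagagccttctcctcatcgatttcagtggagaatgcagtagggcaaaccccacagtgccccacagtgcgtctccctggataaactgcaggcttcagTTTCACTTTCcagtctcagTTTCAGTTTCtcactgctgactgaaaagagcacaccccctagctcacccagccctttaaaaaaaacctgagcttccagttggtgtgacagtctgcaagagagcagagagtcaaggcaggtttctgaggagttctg
Isg15: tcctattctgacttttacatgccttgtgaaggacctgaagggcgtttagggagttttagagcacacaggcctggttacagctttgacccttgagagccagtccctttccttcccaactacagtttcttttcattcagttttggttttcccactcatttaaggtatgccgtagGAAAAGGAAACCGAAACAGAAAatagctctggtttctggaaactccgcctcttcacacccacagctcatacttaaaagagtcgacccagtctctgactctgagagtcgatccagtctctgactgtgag
In Ifit1 the motif stood 104 and 85 bases before the start, and in Isg15 overlapping copies began 78, 72 and 66 bases before it. The motif was found in 10 of 16 interferon-stimulated genes with a window, against 3.993% of all genes in the table and 3.787% of the tested ones.

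Extracellular matrix genes rose to high levels. Of 36 matrix genes tested, 32 were higher and 1 lower (median log2 fold change 2.58), and the list summed to 12320 to 18790 CPM after injury against 1562 to 3039 CPM. Col1a1, a chain of the main fibrillar collagen, was at 3553, 2411, 2796 and 5474 CPM after injury and at 76.1 to 508 CPM (median 233) in contralateral muscle, a 14.1-fold ratio of the means (3.82 ± 0.54, adjusted p = 3.03e-07). Col3a1, the collagen chain of loose and early scar tissue, was at 1619, 1239, 1365 and 1358 CPM against 39.7 to 149 CPM (4.05 ± 0.47, adjusted p = 1.20e-08). Components of the transitional matrix rose alongside, with Postn, which encodes periostin, at 385, 263, 270 and 531 CPM against 1.75 to 32.2 CPM (4.93 ± 0.77), Tnc, which encodes tenascin C, rising by 4.17 ± 0.54 and Fn1, which encodes fibronectin, by 3.49 ± 0.39. Dcn, a small proteoglycan that binds collagen and TGF-beta, was the member that fell, from 514 to 948 CPM to between 349 and 520 CPM (-0.64 ± 0.20, adjusted p = 0.0063, groups overlapping), and its direction turned by library totals (0.38).

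Enzymes that modify collagen were higher in 15 of 18 cases and lower in none. Lox, which crosslinks collagen and elastin, was at 233, 177, 197 and 305 CPM after injury and at 6.12 to 20.5 CPM in contralateral muscle (3.95 ± 0.38, adjusted p = 5.48e-10), and P4ha3, a prolyl hydroxylase subunit, rose by 4.88 ± 0.54. Loxl1 and Fkbp10, a further crosslinking enzyme and a collagen chaperone, were among the 8 genes with the smallest p of those that rose. Among matrix proteases and their inhibitors 19 of 24 were higher and 3 lower. The collagenase gene Mmp13 was at 5.75 to 50.1 CPM after injury and at 0 to 1.24 CPM in the contralateral leg (5.99 ± 1.08, adjusted p = 1.25e-05), whereas Adamts1 and the inhibitor gene Timp3, both named after their values were seen, fell by 0.65 ± 0.26 and by 1.79 ± 0.19. The groups overlapped for Adamts1, and its call was lost with the mouse as a block (adjusted p = 0.426). Timp4, a further inhibitor of metalloproteases, was at 1.98, 1.85, 3.56 and 3.03 CPM against 28.3 to 72.4 CPM (-4.22 ± 0.49, adjusted p = 1.22e-08). Basement membrane genes were higher in 11 of 14 cases, with a lower median of 1.08, Col18a1 rising by 2.40 ± 0.28 and Lamb1, a laminin chain, by 1.87 ± 0.21.

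Markers of resident cells other than myofibers moved in both directions. Fibro-adipogenic progenitor markers were higher in 8 of 12 cases and lower in 1 with a median of 0.85, Pdgfra, the receptor by which these cells are identified, rising from a mean of 7.24 to 14.2 CPM (0.96 ± 0.22, adjusted p = 0.000331) and Thy1 by 2.10 ± 0.26. Endothelial markers were lower in 6 of 15 cases and higher in none (median -0.41), but by library totals 9 were higher and 1 lower (median 0.63). Flt1, a receptor for VEGF, was the clearest of those that fell (-1.95 ± 0.25). Mural cell markers were split, 3 higher and 4 lower among 9 (4 higher and 1 lower by library totals), with Acta2, the smooth muscle actin also made by myofibroblasts, rising by 2.02 ± 0.36 and Myh11, the smooth muscle myosin, falling by 1.51 ± 0.34, a call lost by library totals (adjusted p = 0.195). Of Schwann cell markers 1 of 8, the neuregulin receptor gene Erbb3, was higher (2.91 ± 0.37), and of tenocyte markers 2 of 7 were, Thbs4 (2.13 ± 0.48) and Scx (1.33 ± 0.52). The call of Scx was lost without contralateral replicate 1 or 4 or injured replicate 1, 2 or 3 (adjusted p from 0.0553 to 0.0783). Adipocyte markers were lower in 6 of 9 cases, a count that became 2 without contralateral replicate 2, 1 with the mouse as a block and 0 by library totals. In that library they summed to 820 CPM, against 202 to 411 CPM in the other contralateral libraries. All 5 erythroid genes tested were lower, and 3 of them were by library totals. They summed to 159.5 to 343.6 CPM after injury and to 365.8 to 1848 CPM in contralateral muscle. The globin genes among them share near-identical copies whose reads may be split between them. None of 10 liver genes passed, their sum reaching at most 3.43 CPM in injured and 19.1 CPM in contralateral muscle.

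Proliferation genes rose in nearly every member tested. Of 34 mitosis genes, 33 were higher and 1 lower, with the largest median of the 43 lists (4.28), and the list summed to 338.4 to 442 CPM after injury against 21.86 to 53.93 CPM. Top2a, the topoisomerase that untangles replicated chromosomes, was at 77.4, 62.8, 82.5 and 89.6 CPM after injury and at 0.273 to 7.78 CPM (median 3.46) in contralateral muscle (4.37 ± 0.65, adjusted p = 6.94e-07). Mki67, which encodes the proliferation antigen Ki67, was at 30.7, 15.8, 27.6 and 22.1 CPM against 0 to 2.68 CPM (4.53 ± 0.69, adjusted p = 1.01e-06), and Prc1, which bundles microtubules of the central spindle, rose by 5.00 ± 0.66. Aurka, a spindle pole kinase, was the member called lower (-1.26 ± 0.37, adjusted p = 0.00383). Its groups overlapped, at 3.08 to 5.06 CPM after injury and 2.77 to 17.2 CPM in contralateral muscle, and the call was lost with the mouse as a block (adjusted p = 0.109) and by library totals (0.616). DNA replication genes were higher in 25 of 30 cases and lower in none (median 1.82), with Lig1, the replicative DNA ligase, at 67.2 to 121 CPM against 8.18 to 23.1 CPM (2.69 ± 0.33) and Mcm6, a subunit of the replicative helicase, rising by 2.40 ± 0.31.

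The promoters of 3 of these mitosis genes are shown because a pair of short motifs recurs in the list. Capitals mark CCAAT, bound by the factor NF-Y, or its reverse complement ATTGG, and TTTGAA, the core of the cell cycle genes homology region, or its reverse complement TTCAAA. Windows were chr11:99024140-99024439 on the minus strand for Top2a, chr7:135716330-135716629 on the minus strand for Mki67 and chr7:80294201-80294500 on the plus strand for Prc1.
Top2a: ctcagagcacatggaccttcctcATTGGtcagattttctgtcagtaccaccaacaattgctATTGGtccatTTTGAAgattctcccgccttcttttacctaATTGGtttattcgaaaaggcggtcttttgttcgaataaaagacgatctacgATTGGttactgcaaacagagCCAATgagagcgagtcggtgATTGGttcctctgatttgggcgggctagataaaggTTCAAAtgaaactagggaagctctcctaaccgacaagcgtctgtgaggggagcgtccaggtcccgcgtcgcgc
Mki67: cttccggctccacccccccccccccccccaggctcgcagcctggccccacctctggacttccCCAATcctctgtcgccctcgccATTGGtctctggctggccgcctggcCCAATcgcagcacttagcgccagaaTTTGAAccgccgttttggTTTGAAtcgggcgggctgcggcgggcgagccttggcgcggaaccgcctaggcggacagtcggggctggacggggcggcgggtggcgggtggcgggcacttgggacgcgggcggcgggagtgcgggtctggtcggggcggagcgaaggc
Prc1: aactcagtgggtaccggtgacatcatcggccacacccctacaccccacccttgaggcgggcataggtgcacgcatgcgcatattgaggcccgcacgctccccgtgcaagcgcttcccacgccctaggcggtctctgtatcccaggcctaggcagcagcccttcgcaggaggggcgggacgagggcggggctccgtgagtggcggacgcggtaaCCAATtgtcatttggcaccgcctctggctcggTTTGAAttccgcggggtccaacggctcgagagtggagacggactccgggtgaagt
In Prc1 CCAAT stood 37 and TTTGAA 5 bases before the start, and in Top2a the nearest of each stood 58 and 23 bases before. CCAAT was found in 25 of 31 mitosis genes with a window and in 41.06% of all genes in the table, and TTTGAA in 23 of 31 and in 20.23%. Both were present in 21 of the 31, against 8.973% of all and 6.835% of tested genes. CCAAT was also present in 11 of 12 genes of the secretory pathway stress list, of which 11 of 15 tested were higher, with Creb3l1 rising by 2.25 ± 0.28 and Pdia3, a disulfide isomerase of the endoplasmic reticulum, by 2.22 ± 0.24, while the chaperone cofactor gene Dnajb9 fell by 1.23 ± 0.31 and the stress factor gene Atf4, named after its value was seen, by 1.13 ± 0.26. By library totals 12 genes of this list were higher and none lower. The fall of Dnajb9 was then no longer called (adjusted p = 0.604), and neither was that of Atf4.

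Of 30 growth factor ligands tested, 9 were higher and 7 lower, shares near those over all genes tested, and by library totals 17 were higher and 4 lower. Igf1, a growth factor of regenerating muscle made by macrophages and fibers, was at 159, 122, 142 and 129 CPM after injury and at 26.2 to 64.4 CPM in contralateral muscle (1.68 ± 0.24, adjusted p = 3.13e-07). Igf2, its fetal relative, was at 11.0 to 28.9 CPM against 0.273 to 0.825 CPM (4.96 ± 0.53, adjusted p = 2.51e-09). Tgfb1, the fibrogenic cytokine, was at 18.1, 19.2, 16.4 and 19.1 CPM against 1.43 to 3.39 CPM (2.80 ± 0.37). Mstn, which encodes myostatin, the inhibitor of muscle growth made by mature fibers, was instead at 0.659, 0.769, 1.92 and 2.87 CPM after injury and at 9.76 to 34.9 CPM in contralateral muscle, a 13.8-fold lower mean (-3.79 ± 0.57, adjusted p = 8.84e-07). Growth factor receptors were higher in 10 and lower in 6 of 21 cases (13 higher and 1 lower by library totals), Fgfr4, the FGF receptor of myogenic cells, rising by 4.69 ± 0.52. Binding proteins were higher in 7 and lower in 1 of 16 cases (13 higher and none lower by library totals), Ltbp2 rising by 4.89 ± 0.44 and Fstl1 by 2.65 ± 0.30, while Ltbp4, which anchors latent TGF-beta, fell by 0.73 ± 0.28 (adjusted p = 0.0233), a direction that turned by library totals (0.32) and a call lost without injured replicate 3 (adjusted p = 0.0521) or 4 (0.0854).

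Wnt and beta-catenin signalling and AKT signalling, which govern MuSC proliferation and differentiation, were examined in the study. It used protein and kinase assays, a reporter and inhibitors in cultured progenitors, isolated MuSCs or purified enzyme. The values here are transcripts of whole muscle with NAM/PN in both groups, and signalling activity was not measured. Among Wnt and beta-catenin genes 7 of 29 were higher and 7 lower, with a median of -0.07 (0.96 by library totals, with 16 higher and 1 lower). Ctnnb1, which encodes beta-catenin, was at 168, 188, 190 and 137 CPM after injury and at 69.3 to 217 CPM (median 203) in contralateral muscle, with a log2 fold change of -0.07 ± 0.23 (adjusted p = 0.807). Csnk1a1, which encodes the casein kinase CK1 alpha that phosphorylates beta-catenin, was at 215, 186, 219 and 274 CPM against 195 to 288 CPM (-0.07 ± 0.13, adjusted p = 0.661), and the beta-catenin target Axin2 was at 0.958 to 2.24 CPM against 1.09 to 2.68 CPM (-0.11 ± 0.46, adjusted p = 0.859). For all 3 the sign turned by library totals, and under that scaling Ctnnb1 and Csnk1a1 were called higher (0.98, adjusted p = 0.000963, and 0.96, adjusted p = 1.77e-08). Clear changes lay among ligands and secreted modulators. Sfrp2, a secreted frizzled-related protein, was at 44.3, 17.7, 20.9 and 12.9 CPM after injury against 0 to 3.50 CPM (4.19 ± 0.59), and Sfrp1 rose by 2.95 ± 0.37. Wnt4 was at 2.77, 2.31, 1.505 and 6.53 CPM after injury against 18.8 to 37.9 CPM (-3.17 ± 0.47, adjusted p = 6.53e-07).

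Among AKT and mTOR genes, 13 of 20 were lower and 1 higher with a median of -0.61, but by library totals 7 were higher and 2 lower with a median of 0.43, and with the mouse as a block 7 were lower. Akt1, the kinase itself, was the member that rose (1.21 ± 0.41, adjusted p = 0.0123, groups overlapping), a call lost without injured replicate 1 (adjusted p = 0.0609). Irs2, an adaptor of the insulin receptor, was at 14.8 to 20.2 CPM after injury against 40.2 to 111 CPM (-2.04 ± 0.36, adjusted p = 1.28e-05), and Ddit4, an inhibitor of mTOR complex 1, was called at -1.82 ± 0.60, a call lost without contralateral replicate 1 (adjusted p = 0.12), with the mouse as a block (0.055) and by library totals (0.261). In the muscle atrophy list 6 of 13 genes were lower and 1, Runx1, higher (median -0.28, and 0.75 by library totals). The ubiquitin ligase genes Fbxo32, which encodes atrogin-1, and Trim63, which encodes MuRF1, both fell, Fbxo32 from 336 to 776 CPM to between 40.0 and 88.9 CPM (-3.05 ± 0.38, adjusted p = 2.95e-08) and Trim63 by 2.35 ± 0.40.

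Genes that handle the 2 administered vitamins were measured too. Of 24 genes of nicotinamide and NAD metabolism, 6 were higher and 6 lower with a median of -0.17 (0.88 by library totals, with 13 higher and 2 lower). Nmrk2, the muscle kinase that turns nicotinamide riboside into NMN, was at 13.8, 28.8, 24.5 and 31.9 CPM after injury and at 105 to 388 CPM (median 240.5) in contralateral muscle, a 9.66-fold lower mean (-3.27 ± 0.48, adjusted p = 6.03e-07). Nampt, the rate-limiting enzyme that salvages NAM into NAD, was at 38.5, 37.1, 33.2 and 22.5 CPM against 29.2 to 102 CPM (-1.16 ± 0.26, adjusted p = 0.000339). Its groups overlapped through contralateral replicate 4, and by library totals it did not pass (-0.10, adjusted p = 0.747). Nnmt, which methylates NAM for excretion, was at 4.10 to 8.76 CPM after injury against 1.23 to 4.09 CPM (1.56 ± 0.48, adjusted p = 0.00629), and Nadk, which phosphorylates NAD to NADP, rose by 1.22 ± 0.40 (adjusted p = 0.0102). The ectoenzyme gene Cd38, a consumer of NAD in leukocytes that was named after its values were seen, was at 6.99, 5.54, 6.02 and 3.51 CPM against 0.616 to 1.65 CPM (2.09 ± 0.43, adjusted p = 9.14e-05).

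Of 5 vitamin B6 genes, 3 were lower and none higher, with a median of -0.63 (0.42 by library totals, with 2 higher and 1 lower). Pdxk, the kinase that phosphorylates PN, was at 18.2 to 23.1 CPM against 12.1 to 19.1 CPM and did not pass (0.45 ± 0.22, adjusted p = 0.0786), but was called higher by DESeq2 (adjusted p = 0.0331), RLE factors (0.0437), library totals (4.74e-07), the fit to the groups compared alone (0.039) and without contralateral replicate 4 (0.0441). Alpl, the phosphatase that dephosphorylates pyridoxal phosphate outside the cell, was at 1.45, 2.15, 1.23 and 2.07 CPM against 7.58 to 14.8 CPM (-2.56 ± 0.51, adjusted p = 6.74e-05), and kept its direction and call by library totals. Also called was Plpbp, a pyridoxal phosphate carrier (-0.63 ± 0.22, adjusted p = 0.0141, named after its value was seen).

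The genes with the smallest p in each direction were chosen among those without overlap, which favours a low spread, and are given as a description. Dap, a regulator of autophagy, was at 81.5, 79.4, 78.5 and 77.6 CPM after injury and at 4.00 to 12.1 CPM in contralateral muscle (3.17 ± 0.24), and Zbtb38, a zinc finger repressor, was at 37.6, 38.3, 40.1 and 32.5 CPM against 88.9 to 115 CPM (-1.45 ± 0.13). Others in this set that rose were Col5a2 (4.00 ± 0.34), Efemp2 (2.62 ± 0.22), Klhl13 (3.08 ± 0.22) and Armcx2 (3.12 ± 0.27), and those that fell included Pink1, the kinase that marks damaged mitochondria (-2.47 ± 0.21), Wfikkn2, an antagonist of myostatin (-3.24 ± 0.30), and Nexn, a Z-disc protein (-1.70 ± 0.16). The 4 mice with both legs were also taken one by one. The macrophage list had medians of the mouse-wise log2 ratios of 4.19, 3.85, 2.95 and 4.23, the interferon-stimulated list of 2.05, 2.19, 1.86 and 2.05, and the fast fibre list of -2.95, -2.03, -2.30 and -1.68, in the order of injured replicates 1 to 4. The developmental contractile list ranged more widely, from 3.33 to 7.04, and the slow fibre list differed in sign, at -0.89, -0.54, 1.35 and 3.11.

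**Figure D3:**
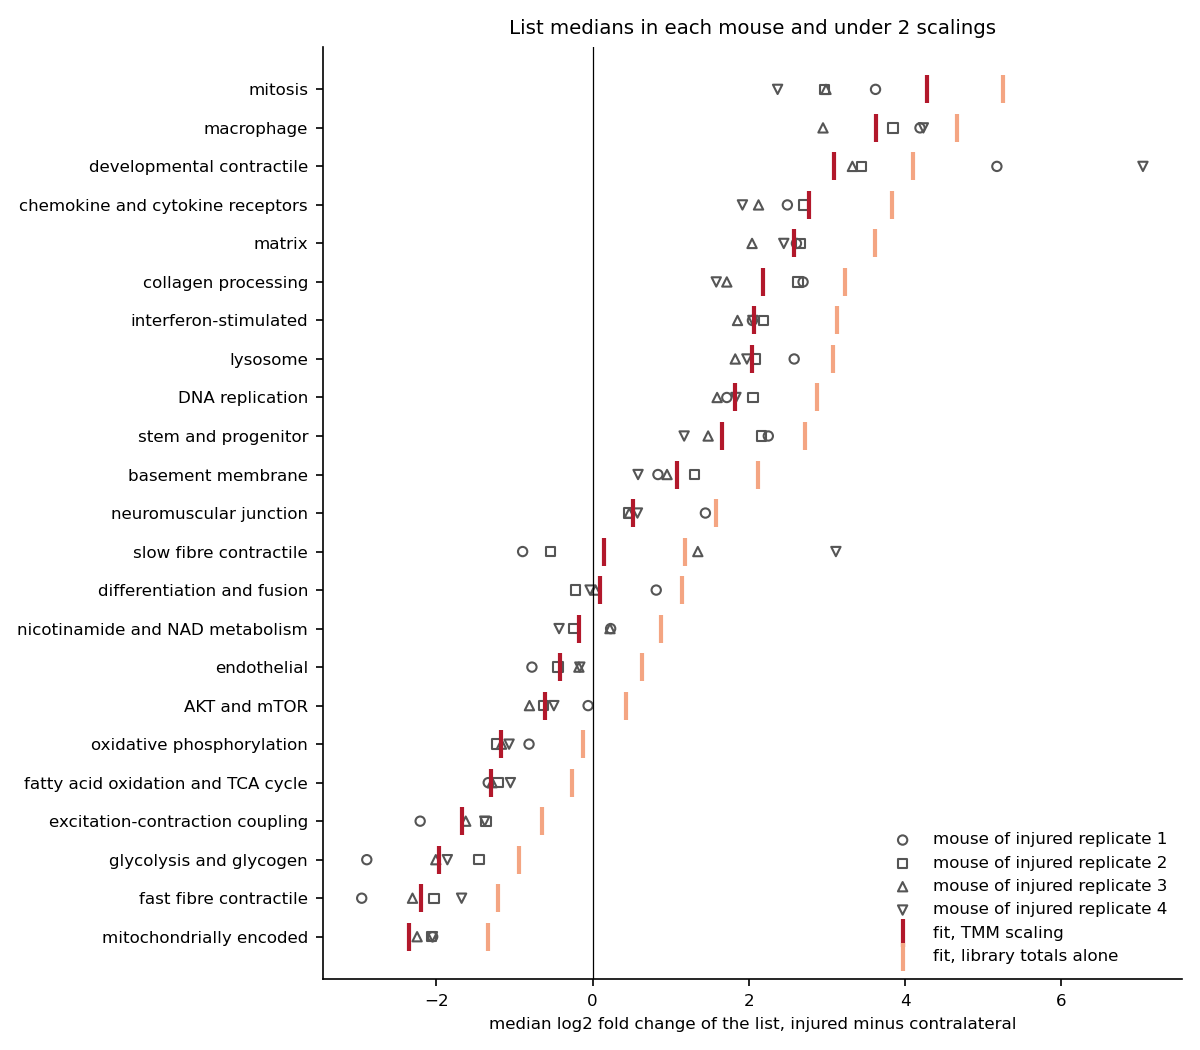
Median log2 fold change of injured over contralateral muscle in 23 gene lists, with open symbols for the mouse-wise ratios of CPM (0.5 CPM added to each) in the 4 mice with both legs, and bars for the fit to all libraries scaled by TMM (red) or by library totals alone (orange). Scaling by library totals moves each bar to the right, and in single mice the macrophage list lies between 2.95 and 4.23 and the fast fibre list between -2.95 and -1.68.

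The injury response was set beside that of the other mice. The same contrast called 2627 higher and 2209 lower genes in aged vehicle-treated, 2829 and 2277 in young NAM/PN-treated and 3698 and 3306 in young vehicle-treated muscle. The difference of the responses was tested directly, in comparisons that share the aged NAM/PN libraries. Against aged vehicle-treated mice, 0 genes (0%) differed by edgeR at an adjusted p below 0.05, with a smallest adjusted p of 0.32, and 964 genes (7.64%) had an unadjusted p below 0.05, of which 398 lay above and 566 below 0. DESeq2 called 40 genes in this comparison, all below 0, and gave an adjusted p to 875 genes. Against young NAM/PN-treated mice, 0 genes (0%) differed by edgeR (smallest adjusted p 0.194), 492 (3.9%) had an unadjusted p below 0.05, and DESeq2 called 2. Single list members are therefore given as values and not as differences between treatments or ages. The sample descriptions code the compound differently in aged and in young treated mice, and both were taken as NAM/PN from the treatment labels. Between these groups, age and whatever the code marks cannot be told apart.

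The medians of the lists show where the aged NAM/PN values lay. The fast fibre median was -2.20 in aged NAM/PN-, -1.30 in aged vehicle-, -1.56 in young NAM/PN- and -1.88 in young vehicle-treated mice, and for macrophage genes the medians were 3.63, 2.31, 3.10 and 4.22 in the same order. The median difference of macrophage genes from aged vehicle-treated mice, 1.03, became 0.33 without aged vehicle contralateral replicate 6. Interferon-stimulated genes had medians of 2.07, 0.94, 1.76 and 1.90. For these genes the difference from aged vehicle-treated mice had a median of 1.18 and an unadjusted p below 0.05 in 10 of 22 members, none of which passed adjustment, and the median of the differences was 0.41 when 1 aged vehicle contralateral library, replicate 6, was left out. Pax7 had log2 fold changes of 3.19 ± 0.35 in aged NAM/PN-, 2.81 in aged vehicle-, 1.91 in young NAM/PN- and 3.00 in young vehicle-treated mice, and Myog of 3.98, 3.52, 4.09 and 4.74. For Pax7 the difference from aged vehicle-treated mice was 0.39 with an unadjusted p of 0.452 by edgeR.

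**Figure D4:**
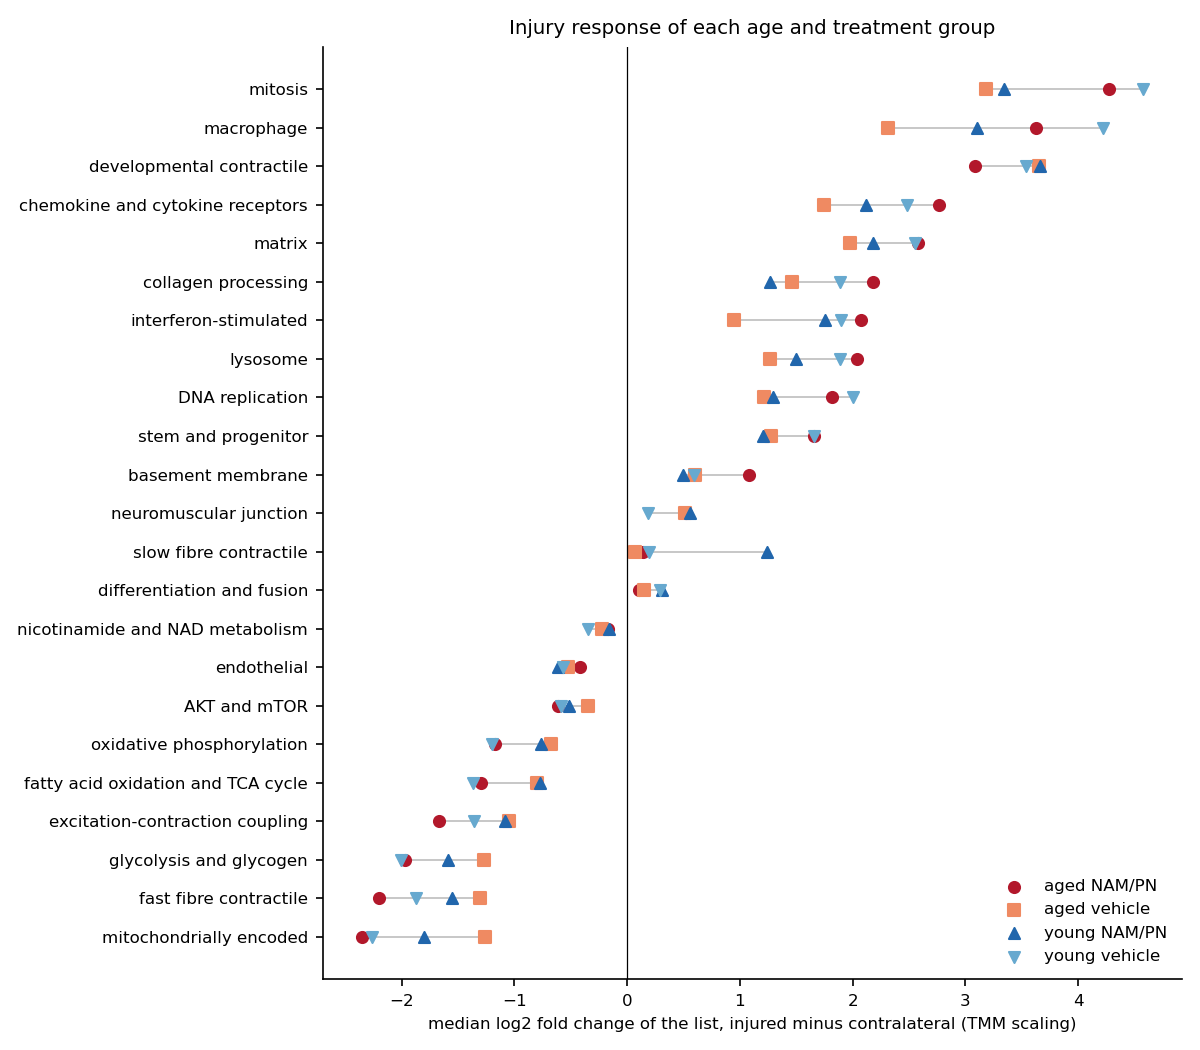
Median log2 fold change of injured over contralateral muscle over the tested members of 23 gene lists in aged NAM/PN-, aged vehicle-, young NAM/PN- and young vehicle-treated mice. Macrophage genes lie at 3.63, 2.31, 3.10 and 4.22 and fast fibre genes at -2.20, -1.30, -1.56 and -1.88 in that order, and no gene differed between aged NAM/PN and aged vehicle at an adjusted p below 0.05 by edgeR, whereas DESeq2 called 40.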

How the data were processed

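Gastrocnemius RNA was profiled by QuantSeq 3′ mRNA-Seq, which counts 1 end fragment per transcript, so that levels need no length correction. The authors mapped reads to GRCm38 with STAR v2.5.3a and deposited raw counts per gene made with HTSeq v2.16.2, as the methods and the submitters' processing notes state; the annotation release and strand setting were not given in the sources used here, so antisense and overlapping genes are uncertain. The table held 27554 genes in 38 libraries of 23 mice; 113 identifiers not found in GENCODE M21 took 0.002144% of counts. No pair of libraries agreed within sampling noise (lowest chi-square per degree of freedom 5.98 over 21 pairs). The 10 libraries analysed held 4132508 to 5929557 counts, which limits the precision of genes near 1 CPM.

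Genes were filtered with filterByExpr (12610 kept), scaled by TMM and tested with edgeR v4.0.16 (R v4.3.3; glmQLFit and glmQLFTest on all 8 groups, Benjamini-Hochberg over all genes). The interactions with aged vehicle and young NAM/PN mice were contrasts of this fit. The share of mitochondrial counts and the genes detected were tested by exact permutation of libraries, without pairing of legs (two-sided, scipy v1.17.1). The pipeline was tested on simulated data. Promoter windows came from RefSeq on GRCm38.p6 (27025 genes, 600 list members matched).

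The libraries, gene lists (43 lists, 834 genes, of which 769 were tested) and tests were chosen with earlier results of these data known. Genes were named by rule: 46 key genes, for each list the 2 largest changes in its majority direction and the 1 largest in the other (adjusted p below 0.05, mean of at least 5 CPM), and per direction the 8 smallest p-values among non-overlapping genes past 1 on the log2 scale that averaged 5 CPM or more, 137 genes in all. Others are said to have been named after their values were seen. A gene that the rule also named is not reported here.

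Legs were paired by the mouse given in the labels, not by title number; deviations from group means correlated at 0.237, -0.312, 0.217 and 0.283 over the 4 pairs. Alternatives were RLE factors, library totals, other filters, DESeq2 v1.42.0, fewer groups, the mouse as a block, mice with both legs alone, no mitochondrial genes and leaving out each library; leaving out 2 pairs of libraries was added after the data were seen.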

Additional observations from a re-analysis of the deposited data

Results flagged for a closer look

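In 364 group values of named genes and lists, 32 single libraries stood apart from their group, where about 18.2 are expected by chance at 1 in 20. Injured replicate 4 was lowest for C1qc (70.4 CPM, others 198 to 207), Myod1 (7.49 CPM, others 29.8 to 32.0), the tenocyte factor gene Scx (7.49 CPM) and the summed nicotinamide and NAD metabolism list (252 CPM), and highest for Ccl8 (158 CPM), Lifr (55.0 CPM), Lig1 (121 CPM), Mfap5, a microfibril component (375 CPM), and the differentiation and fusion list (7414 CPM). In the other injured libraries, replicate 3 was highest for Rtp4 (25.9 CPM, others 24.3 to 24.5) and lowest for the slow fibre list (1777 CPM), and replicate 1 was highest for the liver list (3.43 CPM).

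Contralateral replicate 4 was lowest for Ctnnb1 (69.3 CPM, others 173 to 217), Nampt (29.2 CPM, others 74.9 to 102) and Wfikkn2 (7.39 CPM), and highest for Myh7 (1078 CPM), Myh11 (81.0 CPM), Ppara (25.6 CPM) and the summed lists of chemokine and cytokine receptors (396 CPM), growth factor ligands (821 CPM) and growth factor receptors (629 CPM). Contralateral replicate 2 was highest for the adipocyte genes Cidec (26.5 CPM, others at most 5.90) and Plin1 (30.3 CPM), for the adipocyte list (820 CPM) and for Pax7 (4.96 CPM). Contralateral replicate 1 was highest for Ddit4 (364 CPM, others 25.2 to 77.8) and the AKT and mTOR list (1493 CPM), and replicate 3 for Sln (70.7 CPM) and the vitamin B6 list (69.2 CPM). Of the libraries with raised injury genes, replicate 5 was highest for the metalloprotease gene Adam12 (3.49 CPM, others at most 1.03) and replicate 6 for Mmp13 (1.24 CPM) and Rtp4 (6.19 CPM).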

How the results depend on the processing

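Counts of genes called moved most with the scaling. By library totals 8446 genes were higher and 804 lower, and 101 list members were lower in place of 243. DESeq2 called 40 genes in the difference from aged vehicle-treated mice and 2 in that from young NAM/PN-treated mice, where edgeR called 0 under every other alternative; DESeq2 gave an adjusted p to 875 genes in the first case. With the replicate block (the mouse), 3234 genes were higher and 2827 lower, and 129 of 137 named genes kept their direction and side of the threshold. Leaving out each library in turn gave 3303 to 3732 higher and 2901 to 3303 lower genes, 325 to 339 higher and 223 to 248 lower list members, 0 genes in either difference of responses, and a difference in mitochondrial share of -16.8 to -13.7 percentage points. The 2 alternatives added after the data were seen gave 3370 higher and 3178 lower genes (without contralateral replicates 5 and 6) and 3579 and 3250 (without injured and contralateral replicate 4).

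Among named genes, 113 of 137 kept direction and call in every alternative run. Genes that were not called and changed sign were Axin2, which was at 0.93 by library totals, at 0.31 without contralateral replicates 5 and 6 and at -0.31 to 0.0781 with 1 library left out, Csnk1a1, at 0.00084 by DESeq2, 0.00047 by RLE factors, 0.96 by library totals and -0.18 to 0.0061 with 1 library left out, and Ctnnb1, at 0.0046 by DESeq2, 0.0048 by RLE factors, 0.98 by library totals, 0.0756 in mice with both legs, 0.17 with the replicate block, 0.0374 without contralateral replicates 5 and 6 and -0.24 to 0.0195 with 1 library left out. By library totals Dcn (0.38), Ltbp4 (0.32) and Myh1 (0.15) also turned. For the DESeq2 counts the cause was not tested, and the shift by library totals is common to all genes.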
